A study of Ctenopharyngodon idella with 15 samples.

Results

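Gills of grass carp kept for 30 days in 6‰ salinity and still free of symptoms were compared with gills of untreated fish. The comparison holds 6 of the 15 fish of the series, 3 fish with 6‰ salinity and a healthy condition in the labels (6‰-treated asymptomatic fish) and 3 untreated healthy fish (con), chosen by title, treatment and health condition. All were 3 months old, from the same experiment and not infected, and each fish gave 1 gill library. The salt was a commercial sea salt, and the labels, which write the salinity as 6%, call the medium saline-alkali water. The study asked how salinity changes gill gene expression, and the remaining fish of the series were 3‰-treated or had visible symptoms.

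The gill is the breathing surface of a fish and also the tissue where salts are taken up or excreted. Its thin epithelium is held together by tight junctions, whose claudin proteins set how leaky the layer is to ions. It is also a mucosal immune organ, with T cells, B cells, macrophages and granule-bearing cells, so that a whole gill library mixes epithelial, ion-transporting, blood and immune cells. Fewer cells of a type and less RNA per cell cannot be told apart in such a library.

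The values were FPKM, a fragment count divided by transcript length and by the size of the library, for 40116 genes in each fish. Differences are given on log2(FPKM + 1), with 6‰-treated asymptomatic fish minus con, and the added 1 makes them smaller than the true ratio for genes of low FPKM. Of the 40116 genes, 24410 had a mean of at least 0.5 FPKM over the 6 fish and were tested with limma. A gene was called when its fold change was at least 1.5 and its p below 0.05, and the stricter count used a Benjamini-Hochberg adjusted p below 0.05 over all tested genes. With 3 fish a side no exact permutation test of a single gene can go below p = 0.1. The total FPKM was 759044 to 779964 in 6‰-treated asymptomatic fish and 775422 to 813471 in con, and 28982 to 29848 genes were above 0 in each of the 6 fish. The number of reads behind a value is not known. The names of gill cell markers are not paired with these identifiers in the sources used here, so the tissue was not checked against its markers.

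The fish of a group were not equally alike. The median absolute log2 difference between libraries was 0.185 to 0.199 among the 6‰-treated asymptomatic fish and 0.255 to 0.384 among con. Con replicate 3 lay as near to the treated fish (0.248 to 0.279) as to con replicate 2 (0.264), and farther from con replicate 1 (0.384). Con replicate 1 was farthest from the treated fish, at 0.37 to 0.422.

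More genes rose than fell. Of the 24410 tested genes 3012 were called, or 12.3%, with 2027 higher (8.30%) and 985 lower (4.04%) in 6‰-treated asymptomatic fish than in con. The adjusted p was below 0.05 for 260 genes, or 1.07%, with 172 higher (0.705%) and 88 lower (0.361%) by limma. The fish of the groups did not overlap in 28.3% of all tested genes, in 2666 of the 3012 called genes and in all 260 adjusted genes. The median difference of all tested genes was 0.08. The excess of rises changed with the scaling of the libraries. Under median-ratio scaling 1527 genes were higher and 1272 lower, and under quantile normalization 1415 were higher and 1368 lower, so the share of rises among called genes was 54.6% and 50.8%, against 67.3% without rescaling. Without con replicate 3 the calls numbered 4676 and the adjusted calls 806, and without each other fish the adjusted calls numbered 48 to 128.

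The calls fell mostly at moderate levels, where most tested genes also lay. Called genes had a median of 8.73 FPKM in 6‰-treated asymptomatic fish and 3.95 FPKM in con where they were higher, and 3.04 FPKM in 6‰-treated asymptomatic fish and 7.84 FPKM in con where they were lower. By the mean over the 6 fish the higher genes centred on 6.44 FPKM and the lower genes on 5.53 FPKM, beside 8.22 FPKM for all tested genes. Among the higher genes 432 of 2027 had a con mean below 1 FPKM, and among the lower genes 295 of 985 had a mean below 1 FPKM in 6‰-treated asymptomatic fish. Of all 24410 tested genes 2792 had a con mean below 1 FPKM, and 2585 had a mean below 1 FPKM in 6‰-treated asymptomatic fish. The higher genes made up 5.2% to 6.66% of all FPKM in 6‰-treated asymptomatic fish and 2.37% to 3.25% in con. The lower genes made up 1.9% to 2% in 6‰-treated asymptomatic fish and 3.39% to 4% in con. Both sets were called on these same fish, so the direction of these contrasts was set by the selection.

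**Figure D1:**
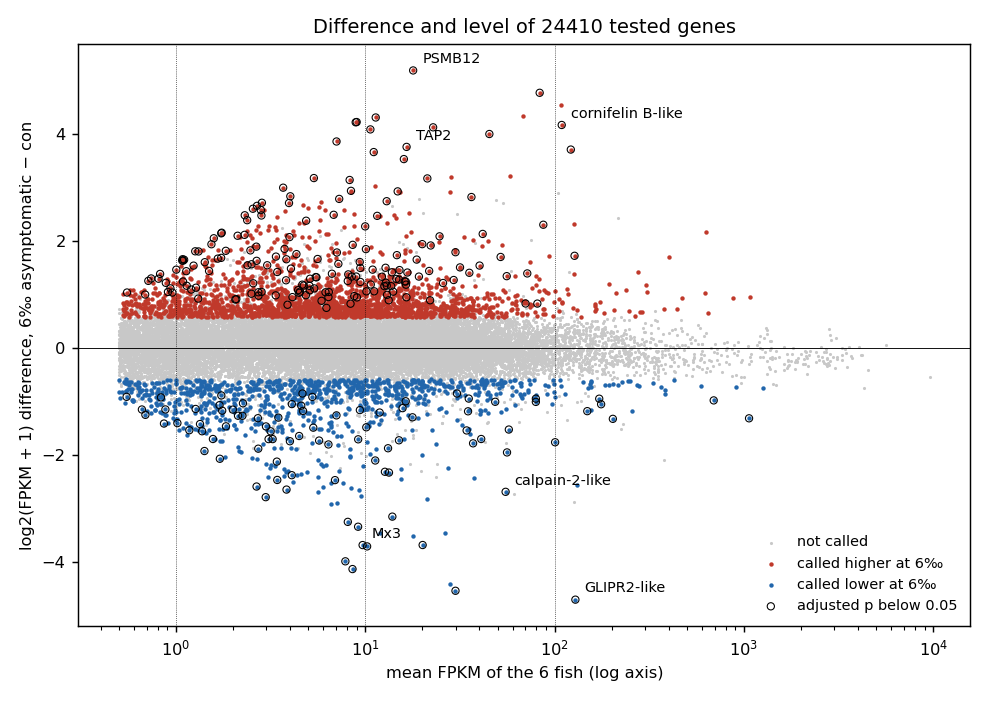
Difference between 6‰-treated asymptomatic fish and con on log2(FPKM + 1) (vertical axis) against the mean FPKM of the 6 fish (horizontal log axis), 1 point per tested gene, red where called higher, blue where called lower, grey where not called, and ringed where the adjusted p was below 0.05. The widest rise, 5.20, lies at a mean of 17.9 FPKM and the widest fall, -4.70, at 129 FPKM, and the fan narrows below 1 FPKM, where the added 1 limits any difference to 1.58.

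Split by level, the share of rises was highest between 1 and 10 FPKM. In that class 1160 of 10940 genes (10.6%) were higher and 543 (4.96%) lower. Between 10 and 100 FPKM 678 of 9979 genes (6.79%) were higher and 302 (3.03%) lower. Genes of 0.5 to 1 FPKM gave 147 rises (5.85%) and 102 falls (4.06%) among 2512. At 100 FPKM and above rises and falls were nearly equal in number, 42 (4.29%) and 38 (3.88%) among 979. Of the adjusted calls in this top class 3 were higher and 8 lower. In the class from 1 to 10 FPKM 101 adjusted calls were higher and 48 lower. The median SD between fish of a group was 0.284 in the lowest class, 0.277, 0.2 and 0.181 in the classes above it, on the log2 scale. Quantile normalization moved the class from 1 to 10 FPKM to 763 rises and 766 falls, so rises no longer exceeded falls there. With a pseudocount of 0.1 the class from 0.5 to 1 FPKM had 321 rises among 2512 genes. The class from 1 to 10 FPKM then had 1421 among 10940, a similar share. Without con replicate 3 the top class had 76 rises and 77 falls.

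**Figure D2:**
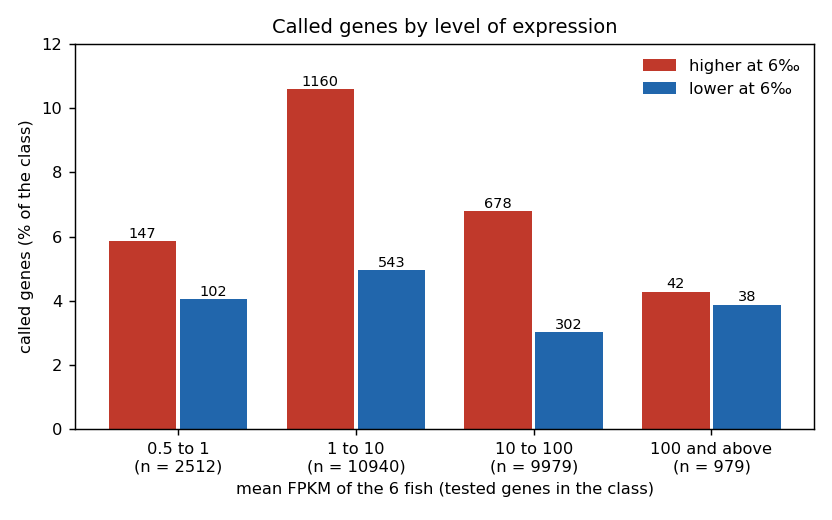
Called genes as a percentage of the tested genes in each class of mean FPKM, red for genes higher and blue for genes lower in 6‰-treated asymptomatic fish, with the number of called genes above each bar. On log2(FPKM + 1) without rescaling, rises peak at 10.6% between 1 and 10 FPKM, and rises and falls stand at 4.29% and 3.88% at 100 FPKM and above.

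The 12 largest rises among the adjusted calls had differences of at least 3.71 and mean levels of 7.07 to 122 FPKM, and the con mean was below 1 FPKM in 6 of them. The 12 largest falls had differences of at least 2.69 in size and mean levels of 2.98 to 129 FPKM, and the mean of 6‰-treated asymptomatic fish was below 1 FPKM in 7 of them. All 24 genes stayed called in each of the 15 alternative settings. Only 6 of the rises and 3 of the falls carry a gene name.

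The largest rise and 2 others of the 12 lie side by side and belong to the machinery that cuts cytosolic proteins into peptides and loads them on MHC class I. PSMB12 (proteasome 20S subunit beta 12, CI01000319_05750029_05750431), a fish relative of the immunoproteasome subunits, had 32.1, 34.1 and 41.2 FPKM in 6‰-treated asymptomatic fish and was listed at 0 in all 3 con fish. Its log2 difference was 5.20 (SE 0.142, limma adjusted p = 0.000157). PSMB9 (CI01000319_05746833_05748261), a catalytic subunit of the immunoproteasome, had 17.8, 15.8 and 19.7 FPKM in 6‰-treated asymptomatic fish and was likewise listed at 0 in every con fish. The difference was 4.22 (SE 0.135, limma adjusted p = 0.000157). TAP2 (antigen peptide transporter 2, CI01000319_05742834_05745945), which carries peptides into the endoplasmic reticulum, had 33.4, 27.3 and 34.1 FPKM in 6‰-treated asymptomatic fish, against 1.01, 1.06 and 2.28 FPKM in con. Its mean was 21.8-fold higher, with a log2 difference of 3.77 (SE 0.227, limma adjusted p = 0.00246). In these 3 genes the fish of a group sat close together and far from the other group. The rule that named them required adjusted calls without overlap and took the largest differences, so this gap was set by the selection.

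The next tested gene on the scaffold, CI01000319_05777222_05780221, which has no name, completed a run of 4 called genes over 37.4 kb. It had 10.4, 6.25 and 2.88 FPKM in 6‰-treated asymptomatic fish, against 0.604, 0 and 0.235 FPKM in con, a difference of 2.45 (SE 0.401, limma adjusted p = 0.0518). TAP2 ends 888 bp before PSMB9 starts, and PSMB9 ends 1768 bp before PSMB12. The 7 tested genes before the run gave differences between -1.94 and 0.38, with 1 called lower, and the 6 tested genes after it gave -0.61 to -0.36, with none called.

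**Figure D3:**
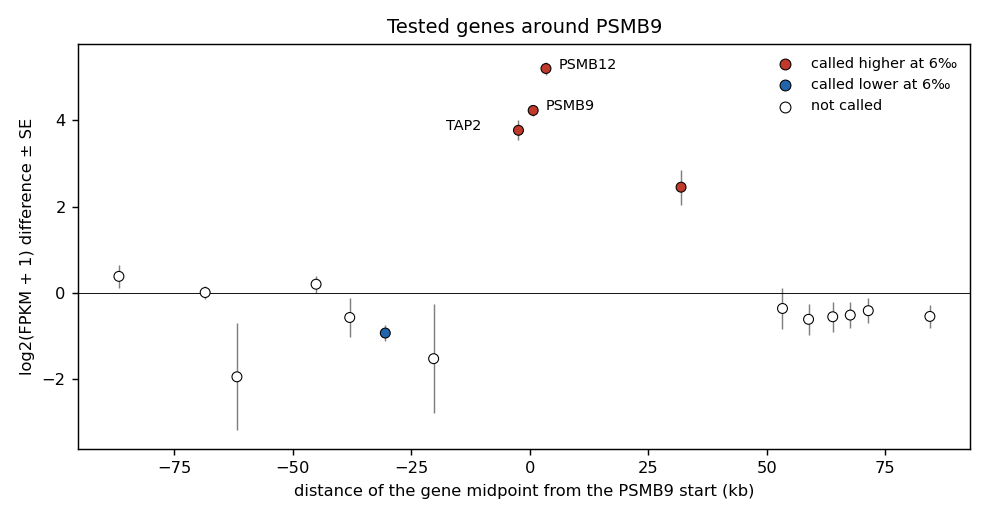
Log2(FPKM + 1) difference between 6‰-treated asymptomatic fish and con, with its SE, for 17 neighbouring tested genes, placed by the distance of their midpoint from the start of PSMB9 in kb. TAP2, PSMB9 and PSMB12 stand at 3.77, 4.22 and 5.20, the next gene at 2.45, and the flanking genes lie between -1.94 and 0.38.

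This block of genes was not high in every salinity-treated fish of the series. PSMB12 and PSMB9 were listed at 0 in all 3 of the 3‰-treated asymptomatic fish and in 6‰-treated symptomatic replicate 3, where TAP2 had 1.63 FPKM. In the remaining symptomatic fish PSMB12 had 24.2 and 73 FPKM at 6‰ and 24.7, 40.8 and 27.2 FPKM at 3‰. TAP2 had 1.97, 3 and 0 FPKM in the 3‰-treated asymptomatic fish. These fish are set beside the same con fish, and no test was made.

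The MHC class I-related genes, whose products resemble the molecules that present peptides to T cells, also rose. CI01000031_00090167_00106114 had 4.21, 2.82 and 3.38 FPKM in 6‰-treated asymptomatic fish and was listed at 0 in con (log2 difference 2.15, SE 0.154, limma adjusted p = 0.00421). Its neighbour CI01000031_00086179_00089751 had 9, 4.47 and 10.1 FPKM in 6‰-treated asymptomatic fish, against 0.32, 0 and 0.248 FPKM in con. CI01000145_01068409_01070674 had 27.8, 22.4 and 23.9 FPKM in 6‰-treated asymptomatic fish, against 7.06, 9.66 and 9.31 FPKM in con, 2.85-fold higher, and was not called in a fit over the 5 groups. All 6 named genes of antigen processing and presentation passed the adjusted threshold, beside 0.705% of all tested genes higher by that threshold, with a median difference of 3.30, beside 0.08 for all genes. The study picked these 6 names from these same libraries, so their common direction is not independent evidence. MHC class I genes are a family of close copies, and reads may be shared between them.

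Genes of the outer epithelium and of proteolysis stood among the largest rises. A cornifelin homolog B-like gene (CI01000163_00353630_00354334), related to a protein of the cornified envelope of mammalian skin, had 258, 255 and 111 FPKM in 6‰-treated asymptomatic fish, against 10.6, 7.25 and 12.2 FPKM in con, and was 20.8-fold higher (log2 difference 4.17, SE 0.368, limma adjusted p = 0.0104). Serine protease 27 (CI01000047_04398951_04431817) had 32.3, 9.78 and 21.2 FPKM in 6‰-treated asymptomatic fish, against 0.192, 0.351 and 0 FPKM in con. A neighbouring locus of the same name, CI01000047_04385029_04397861, had 29.3, 12.1 and 19.4 FPKM in 6‰-treated asymptomatic fish and 1.7, 4.7 and 2.06 FPKM in con. The groups did not overlap in any of them, which the rule for naming genes required.

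Transglutaminase K (protein-glutamine gamma-glutamyltransferase K, CI01000021_05928007_05937412), which cross-links envelope proteins in mammalian epidermis, had 39.2, 26.4 and 16.1 FPKM in 6‰-treated asymptomatic fish, against 3.36, 5.73 and 7.16 FPKM in con. The difference was 2.10 (SE 0.365, limma adjusted p = 0.0583). A trypsin-like protease (CI01000246_00260326_00264978) was 3.41-fold higher, at 238, 209 and 145 FPKM in 6‰-treated asymptomatic fish and 60.3, 50.4 and 62.8 FPKM in con. In the same tissue other epithelial genes went down. Cadherin-1 (CI01000013_11402841_11414169), named for the adhesion protein of epithelial junctions, had 0.742, 0.49 and 0.524 FPKM in 6‰-treated asymptomatic fish, against 4.6, 9.63 and 4.49 FPKM in con (log2 difference -2.12, SE 0.275, limma adjusted p = 0.0307). Another cadherin-1 locus, CI01000043_07530040_07549512, gave -0.12 and was not called. A KRT8-like keratin was 2.72-fold lower and an epidermal differentiation-specific protein 6.84-fold lower, both called. Of 9 tested genes with such names 5 were called higher and 3 lower, beside 8.30% and 4.04% of all tested genes. The study drew 5 of the 10 listed names from these libraries and 5 from infected fish. Their split into rises and falls is therefore not independent evidence about the epithelium.

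Of 9 named claudins 5 were called higher, 4 were not called and none had an adjusted p below 0.05 by limma, beside 8.30% of all tested genes called higher. All 9 had a positive difference, from 0.34 to 1.10. Under both scalings 9 stayed positive and 5 called, and claudin-4 CI01000091_00368135_00368878 lost its call without con replicate 1. The study chose them on these libraries. The most abundant, claudin-4 (CI01000091_00370016_00370645), had 602, 633 and 445 FPKM in 6‰-treated asymptomatic fish, against 317, 343 and 333 FPKM in con, 1.69-fold higher (SE 0.172 of a log2 difference of 0.74, limma adjusted p = 0.101). Claudin-23 (CI01000304_04227914_04228723) had 197, 165 and 117 FPKM in 6‰-treated asymptomatic fish and 56.1, 80.8 and 82.2 FPKM in con. Claudin-10 (CI01000350_00146107_00147209), whose mammalian forms make ion-selective pores, had 27.2, 23.7 and 19.2 FPKM in 6‰-treated asymptomatic fish and 7.31, 12.7 and 14.6 FPKM in con. Both claudin-8 loci overlapped between the groups and were not called.

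A urea transporter 2-like gene (CI01000080_00840896_00847444), of the family that moves urea across membranes, had 50.5, 24.7 and 16.2 FPKM in 6‰-treated asymptomatic fish, against 1.1, 1.27 and 2.06 FPKM in con, 20.6-fold higher (log2 difference 3.54, SE 0.398, limma adjusted p = 0.0235). DNA damage-inducible transcript 4, an inhibitor of mTOR signalling that is induced by several stresses, had 63, 92.6 and 50.1 FPKM in 6‰-treated asymptomatic fish and 19.2, 10.2 and 14.9 FPKM in con. FKBP5, a co-chaperone of the glucocorticoid receptor, was called higher at 432, 122 and 87.3 FPKM in 6‰-treated asymptomatic fish, against 59.5, 11.9 and 47.5 FPKM in con, with a wide SE of 0.775 and no adjusted call, and lost the call without con replicate 2 or treated replicate 1.

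The hypoxia-inducible factors, transcription factors that answer to low oxygen, were higher in each 6‰-treated asymptomatic fish than in any con fish. The groups did not overlap in 28.3% of all tested genes. All 3 loci were called higher and 2 passed the adjusted p, beside 8.30% and 0.705% of all tested genes. HIF-2 alpha (CI01000012_01412584_01433078) had 56.8, 41.9 and 42.5 FPKM in 6‰-treated asymptomatic fish, against 11.6, 12 and 14.8 FPKM in con, 3.68-fold higher (log2 difference 1.79, SE 0.178, limma adjusted p = 0.0165). The adjoining locus of the same name, CI01000012_01435706_01436086, was 3-fold higher and may not be a separate measurement. HIF-4 alpha (CI01000072_02058184_02067046) had 137.1, 76 and 58 FPKM in 6‰-treated asymptomatic fish and 30.9, 31.9 and 34.9 FPKM in con, and was called without passing the adjustment. All 5 named semaphorins, guidance proteins that also act between immune cells, were called higher, with differences of 0.90 to 1.05 and 2 adjusted calls. Beside them stand 8.30% of all tested genes called higher and 0.705% higher after adjustment. Semaphorin-4B was not called without con replicate 1 or without treated replicate 1 or 2. HIFs and semaphorins were again names the study drew from these libraries.

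NLRs, cytosolic receptors with a NACHT domain that sense microbial or danger signals, went in both directions, with more calls higher than lower. Of 35 tested genes with an NLR name 17 were called higher and 2 lower, 3 rises passed the adjusted p, and the median difference was 0.73. Of all tested genes 8.30% were called higher, 4.04% lower and 0.705% higher after adjustment. Without con replicate 1 the counts were 14 higher and 4 lower. The names of 16 of the 36 listed NLRs were drawn by the study from these libraries and those of 20 from infected fish. NLRC3 CI01000537_00000001_00015829 had 8.93, 8.52 and 9.69 FPKM in 6‰-treated asymptomatic fish, against 2.22, 2.18 and 2.07 FPKM in con, with almost no spread (log2 difference 1.67, SE 0.124, limma adjusted p = 0.0047). NLRC3 CI01000531_00019664_00026234 had 2.64, 2.97 and 1.99 FPKM in 6‰-treated asymptomatic fish and was listed at 0 in con. An NLRP12-like gene (CI01000492_00000416_00034069) had 23.3, 17.5 and 27.2 FPKM in 6‰-treated asymptomatic fish and 6.32, 6.59 and 9.95 FPKM in con. The strongest fall was an NLRP3-like gene (CI01000311_00306691_00328168), at 0.0581, 0 and 0.148 FPKM in 6‰-treated asymptomatic fish and 1.57, 3.34 and 1.42 FPKM in con.

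The study's text gives 16 of the matched NLRs by identifier. Among the 5 described with a complete reading frame 4 were called higher, with a median of 1.64, and the exception, newGene_5350, matched by number alone, gave -0.14. The study took these 5 from genes it reported as up-regulated by salinity in this series, so their direction is not independent evidence. CI01000095_03598784_03614858, here named NLRP3-like, is counted among NLRC3-like genes in the paper's text. It had 6.19, 1.06 and 7.07 FPKM in 6‰-treated asymptomatic fish, against 0.071, 0.136 and 0.184 FPKM in con. CI01000365_00436141_00445601, NLRC3, had 15.2, 2.44 and 9.44 FPKM in 6‰-treated asymptomatic fish, against 0.687, 0.771 and 1.59 FPKM in con. Treated replicate 2 was the lowest of the treated fish in both. CI01000437_00000063_00010815, an NLRC3 gene of the 5, lost its call without con replicate 1 or without treated replicate 2 or 3. Among the 11 measured by qRT-PCR in infected fish 2 were called higher, beside 8.30% of all tested genes, none lower, and the median was 0.21. One of the 2, NLRC3 CI01000092_03702024_03712418, had an unadjusted limma p just under the threshold and lost its call in 12 of the 15 alternatives. NLRP12-like 2 (CI01000353_00909159_00930428) had 3.44, 2.4 and 2.76 FPKM in 6‰-treated asymptomatic fish and 1.5, 2.44 and 3.12 FPKM in con, which overlapped. None of the 16 had an adjusted p below 0.05, and reads may be shared between NLR copies.

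Of the 12 largest rises 6 have no name. The most abundant of them, CI01000344_03184366_03185464, had 329, 242 and 113 FPKM in 6‰-treated asymptomatic fish, against 16.6, 9.98 and 20 FPKM in con, 14.7-fold higher. CI01000376_00183041_00194776 had 244, 120 and 122 FPKM in 6‰-treated asymptomatic fish, against 3.79, 3.89 and 6.54 FPKM in con, 34.1-fold higher and the largest rise after PSMB12 (log2 difference 4.78, SE 0.329, limma adjusted p = 0.00373). Treated replicate 1 was the highest fish in both. newGene_8896 and newGene_8898 were 18.1-fold and 26.8-fold higher, while newGene_8771 and CI01000442_00035892_00039364 had 16.1 to 24.8 FPKM in the treated fish and were listed at 0 in 2 of the 3 con fish. Lymphocyte antigen 6B-like (CI01101730_00000408_00000946), of a family of small proteins anchored to the cell surface, had 11.4, 10.7 and 20.3 FPKM in 6‰-treated asymptomatic fish and was listed at 0 in con (log2 difference 3.87, SE 0.243, limma adjusted p = 0.00283).

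The named mannose receptors also rose. Of 5 genes named as C-type lectins, 4 with mannose receptor names were called higher, beside 8.30% of all tested genes. CD207-like, named for a lectin of Langerhans cells, was called lower, but not without con replicate 2 or 3 or treated replicate 2 or 3. The study drew 4 of these 5 names from these libraries and 1 from infected fish, so their directions are not independent evidence. C-type mannose receptor 2-like CI01000254_00157211_00159533 had 11, 5.18 and 5.92 FPKM in 6‰-treated asymptomatic fish and was listed at 0 in all con fish (log2 difference 3.00, SE 0.258, limma adjusted p = 0.00901). C-type mannose receptor 2 CI01000103_00014319_00016525 had 6.03, 4.28 and 2.89 FPKM in 6‰-treated asymptomatic fish, against 0.162, 0.28 and 0.184 FPKM in con. The 3 named butyrophilins, of the immunoglobulin superfamily, were called higher with a median of 1.55 and no adjusted call, but only CI01000269_00136855_00141110, at 8.88, 2.6 and 7.33 FPKM in 6‰-treated asymptomatic fish and 0.9, 0 and 0.391 FPKM in con, stayed called in all 15 alternative settings. CI01000333_00668042_00686951 lost the call in 8 of them and butyrophilin-like protein 3 (CI01104671_00000092_00001096) in 6, and without con replicate 1, con replicate 2 or treated replicate 1 only 1 of the 3 was called. All 3 butyrophilin names were likewise drawn by the study from these libraries. C-type lysozyme (CI01000018_06021105_06025859), an enzyme that cleaves bacterial walls, had 13.8, 23.2 and 14.8 FPKM in 6‰-treated asymptomatic fish and 2.55, 2.58 and 2.9 FPKM in con, 6.45-fold higher (SE 0.212 of a log2 difference of 2.28, limma adjusted p = 0.0125).

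**Figure D4:**
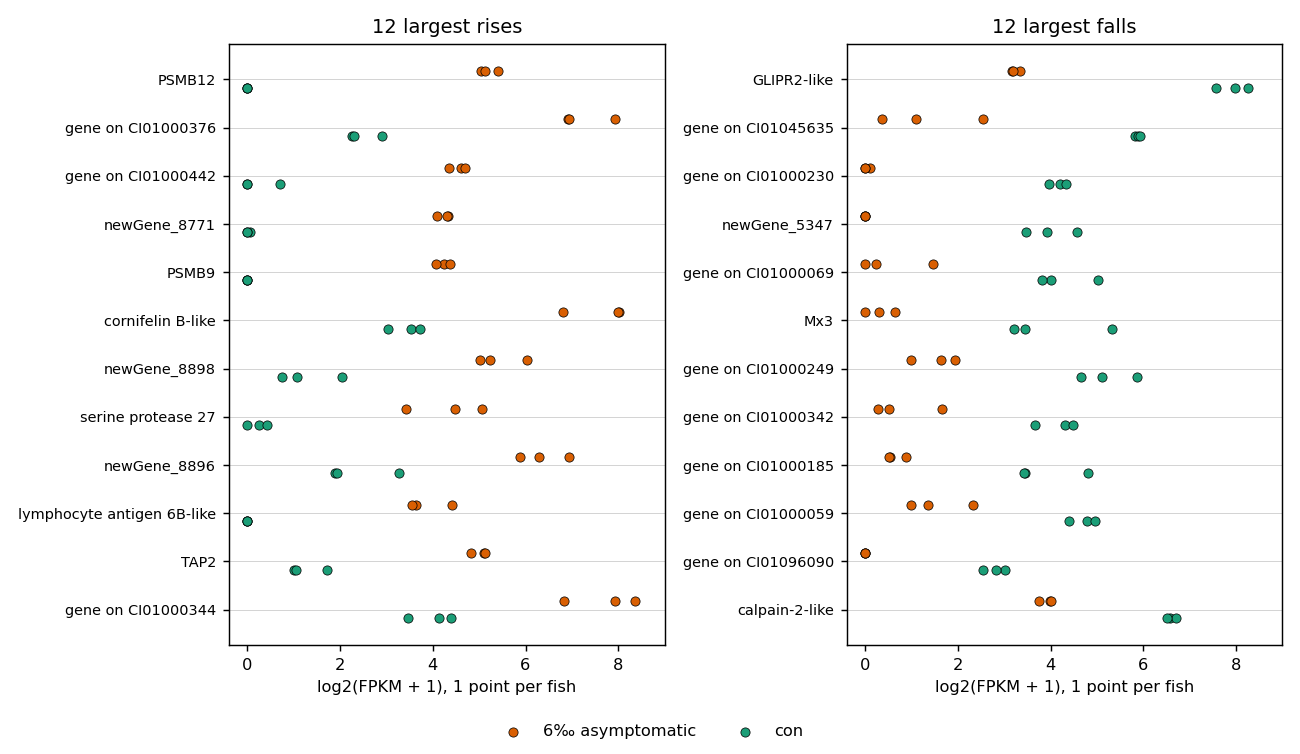
Log2(FPKM + 1) of each fish for the 12 largest rises and the 12 largest falls among the adjusted calls, with 6‰-treated asymptomatic fish (orange) drawn above con (green) in each row. Genes without a name are shown by their scaffold. Only genes whose groups did not overlap were eligible, so the gap between the groups in all 24 rows was set by the selection. PSMB12, PSMB9 and lymphocyte antigen 6B-like sit at 0 in con.

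The largest fall was a GLIPR2-like gene (CI01000275_00123293_00123962), a relative of plant pathogenesis-related proteins, with 9.16, 8.01 and 8.1 FPKM in 6‰-treated asymptomatic fish, against 250, 307 and 190 FPKM in con. It was 29.5-fold lower (log2 difference -4.70, SE 0.199, limma adjusted p = 0.000594) and was 1 of 2 called falls of at least 2 on the log2 scale at 100 FPKM and above. A calpain-2 catalytic subunit-like gene (CI01000030_06499375_06510887), of the calcium-dependent proteases, had 14.8, 15.1 and 12.4 FPKM in 6‰-treated asymptomatic fish and 94.7, 104 and 90.2 FPKM in con, 6.81-fold lower (log2 difference -2.69, SE 0.141, limma adjusted p = 0.00139).

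Several of the largest falls have no name. CI01000230_00274184_00280869 had 0.0772, 0 and 0 FPKM in 6‰-treated asymptomatic fish, against 14.6, 17.5 and 19.2 FPKM in con, and newGene_5347 was listed at 0 in the 3 treated fish, against 22.7, 14.3 and 10.1 FPKM in con. CI01045635_00000947_00005473 had 1.14, 4.87 and 0.287 FPKM in 6‰-treated asymptomatic fish and 55.9, 58.1 and 59.5 FPKM in con. In the other fish GLIPR2-like had 314 FPKM in 6‰-treated symptomatic replicate 1 but 13.2 and 5.46 FPKM in replicates 2 and 3, and 45.9 to 628 FPKM at 3‰. The calpain-2-like gene was split in the same way, at 92.5, 15.5 and 11.8 FPKM in the 6‰-treated symptomatic fish. Counted over the 12 largest falls, 7, 11 and 12 genes lay below every con fish in 6‰-treated symptomatic replicates 1, 2 and 3, and 10 or 11 did in each 3‰-treated asymptomatic fish. In the 3‰-treated symptomatic fish 7, 4 and 4 of these falls did. Over the 12 largest rises, 9 to 12 genes lay above every con fish in the 6‰-treated symptomatic fish, 5 to 10 did in the 3‰-treated asymptomatic fish, and all 12 did in each 3‰-treated symptomatic fish. The same con fish stand in each of these counts.

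Of 11 tested interferon-related genes 3 were called lower, 2 of them after adjustment, and 8 were not called, beside 4.04% of all tested genes called lower. All 11 had a negative difference, with a median of -0.57, beside 0.08 for all genes. The GVINP1 and GBP1 genes, which the paper also connects to interferon responses, were grouped apart with their relatives. Of those 34 tested genes 20 had a positive and 14 a negative difference, with a median of 0.19. The common direction therefore holds only for the 11 genes of this group. Under both scalings 4 of these 11 were called lower. The difference was positive in 3 of the 11 without treated replicate 1, in 2 without con replicate 3 and in 1 without con replicate 1, and the median was -0.95 without con replicate 1 and -0.93 without treated replicate 3. Mx3 (CI01000299_04136702_04142005), an interferon-induced GTPase that blocks viruses, had 0, 0.555 and 0.231 FPKM in 6‰-treated asymptomatic fish, against 8.27, 39 and 9.94 FPKM in con (log2 difference -3.68, SE 0.55, limma adjusted p = 0.0428). IRF11 (CI01000005_07355833_07360372), an interferon regulatory factor of fish, had 22.6, 21.5 and 18.9 FPKM in 6‰-treated asymptomatic fish and 52.3, 45.3 and 48.7 FPKM in con (log2 difference -1.18, SE 0.138, limma adjusted p = 0.025). IRF1, a transcription factor of the interferon response, was abundant in all fish, at 400, 453 and 498 FPKM in 6‰-treated asymptomatic fish and 648, 776 and 769 FPKM in con, and was called lower without adjustment. The 3 IFI44L loci varied widely within groups and were not called. One of them, CI01000299_00042567_00045857, had 0.0581, 54.3 and 38.2 FPKM in 6‰-treated asymptomatic fish and 135, 54.7 and 85.6 FPKM in con. STING and MAVS, adaptors of nucleic acid sensing, gave -0.40 and -0.02 and were not called.

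The GVINP1 and GBP1 GTPases, large interferon-inducible proteins in mammals, were mostly not called. Of 34 tested genes in this family and its relatives 3 were called higher, 3 lower and 28 were not called, beside 8.30% and 4.04% of all tested genes, and the median was 0.19. Of the 36 listed names 34 were drawn by the study from infected fish and 2 from these libraries. In the fit over the 5 groups and under quantile normalization 3 were called higher and 5 lower. The counts were 6 higher and 3 lower without con replicate 3, 6 and 2 without treated replicate 2, 7 and 1 without treated replicate 1, and 3 and 1 with a median of -0.08 without con replicate 1. An interferon-induced very large GTPase 1 gene (CI01085980_00000041_00001366) was the only adjusted call, at 4.33, 7.18 and 5.6 FPKM in 6‰-treated asymptomatic fish and 1.25, 1.34 and 0.555 FPKM in con. These are multigene families in which reads may be shared. The inflammasome adaptor PYCARD and the caspases CASP1, CASPa and CASP8 gave 10 tested genes with the death ligands FASLG and TRAIL, of which TRAIL alone was called, at 0.73, and not without con replicate 2. That is 1 of 10, near the 12.3% of all tested genes. PYCARD (CI01000027_03783310_03784541) had 80.2, 95.7 and 106 FPKM in 6‰-treated asymptomatic fish and 154, 125 and 111 FPKM in con, apart from each other but below the fold threshold.

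The 3 named type 2 cytokine and receptor genes fell. Interleukin-4/13A (CI01000040_03226639_03227469), a cytokine of type 2 immunity, had 13, 5.5 and 6.97 FPKM in 6‰-treated asymptomatic fish, against 57.2, 61.6 and 20.4 FPKM in con, 5.47-fold lower (log2 difference -2.25, SE 0.48, limma adjusted p = 0.0869). Interleukin-4/13B (CI01000000_17729584_17730495) had 0.614, 0.989 and 2.24 FPKM in 6‰-treated asymptomatic fish and 9.44, 7.57 and 4.86 FPKM in con. Interleukin-13 receptor alpha-1 (CI01000160_00676289_00679272), a receptor subunit of these cytokines, had 1.12, 0.865 and 0.749 FPKM in 6‰-treated asymptomatic fish and 4.04, 5.82 and 5.92 FPKM in con (log2 difference -1.70, SE 0.176, limma adjusted p = 0.0183). All 3 were called lower, beside 4.04% of all tested genes, and stayed called in all 15 alternatives. Interleukin-21 receptor (CI01000046_01255895_01262232) was called lower as well, 4.17-fold.

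Of 11 named mast cell proteases, granzymes and relatives 7 fell. All 11 had a negative difference, 2 of the 7 falls passed the adjusted p, and the median was -1.44, while 4.04% of all tested genes were called lower. In the fit over the 5 groups 4 were called. Leaving out each fish in turn gave 6 to 9 calls, and 1 difference was positive without con replicate 1 or 3 or treated replicate 1 or 2. Mast cell protease 8 (CI01000030_02678940_02684491) had 14, 14.6 and 19.4 FPKM in 6‰-treated asymptomatic fish, against 51, 77 and 46.5 FPKM in con, 3.64-fold lower (log2 difference -1.78, SE 0.234, limma adjusted p = 0.0313). A granzyme B(G,H) locus, CI01000030_03106589_03108355, of the serine proteases that lymphocytes release to kill cells, had 15.2, 14.5 and 20.5 FPKM in 6‰-treated asymptomatic fish and 44.8, 79.2 and 40.5 FPKM in con. Another granzyme B(G,H) locus, CI01000030_03060378_03062683, gave -0.002 and perforin-1, the pore former released with granzymes, gave -0.30, neither called. Several of the 11 loci lie on scaffold CI01000030, and neighbouring loci of a family may share reads, so they may not be separate measurements. The names of the interferon, type 2 cytokine and protease genes were drawn by the study from infected fish, where they were shown as lower after salinity treatment.

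The chemokines and their receptors were split. CXCR4b (CI01000036_00947110_00948159), a receptor that guides leukocyte movement, had 102, 111 and 131 FPKM in 6‰-treated asymptomatic fish, against 39, 36.4 and 58.9 FPKM in con, 2.56-fold higher (log2 difference 1.36, SE 0.218, limma adjusted p = 0.0503). IL8, which attracts neutrophils, was called lower at 2 of 3 loci, and at CI01159682_00000241_00000722 it had 9.99, 18.7 and 21.1 FPKM in 6‰-treated asymptomatic fish and 65.1, 39.3 and 27.8 FPKM in con. Of 17 tested genes 3 were called higher, 4 lower and none after adjustment by limma, beside 8.30% and 4.04% of all tested genes, and the median was 0.05, or -0.04 under median-ratio scaling and -0.12 to 0.25 when a fish was left out. Of the 17 names 5 were drawn by the study from these libraries and 12 from infected fish. The IL8 locus CI01000300_03901275_03902800 lost its call without treated replicate 1.

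Of 13 tested immunoglobulin genes 2 were called lower, beside 4.04% of all tested genes, 10 had a negative difference, and the median was -0.55. These counts moved with the fish and the fit. Without treated replicate 2 all 13 were negative and 4 called, without con replicate 3 the median was -0.22 and 1 was called, without con replicate 2 or treated replicate 1 it was -0.17 and -0.16, and both calls were lost in the fit over the 5 groups. All 13 names were drawn by the study from infected fish, where it reported immunoglobulin genes as impaired by salinity treatment. For fish without infection it reported no effect of salinity on IgM, IgD, IgZ or the light and heavy chains. IgM heavy chain varied widely, at 78.7, 231 and 156 FPKM in 6‰-treated asymptomatic fish and 69.4, 258 and 331 FPKM in con. Of 9 tested genes grouped by name as lymphocyte surface markers 1 was called higher and 3 lower, beside 8.30% and 4.04% of all genes. The median was -0.41, and none was called after adjustment by limma. The names were CD4-like, CD8 alpha, CD40, CD48, CD5-like and MS4A4A, not all of them confined to lymphocytes. The 3 falls were CD48, CD5-like and MS4A4A loci. The study drew 8 of these 9 names from infected fish and 1 from these libraries. CD48, a receptor shared by many leukocytes, was called higher at CI01000030_08845484_08861801, with 5.17, 4.68 and 6.41 FPKM in 6‰-treated asymptomatic fish and 2.95, 2.42 and 4.16 FPKM in con. At CI01000118_00663173_00678675 CD48 was called lower, with 3.23, 3.6 and 6 FPKM in 6‰-treated asymptomatic fish and 5.36, 6.89 and 8.84 FPKM in con, which overlapped. CD5-like (CI01000049_07671905_07677035) was called lower with overlap too, at 5.52, 7.37 and 11.3 FPKM in 6‰-treated asymptomatic fish and 11.2, 15.6 and 16.7 FPKM in con. These 3 calls were each lost in 4 to 6 of the 15 alternatives, the CD48 rise under both scalings, and without con replicate 2 or 3 or treated replicate 1 or 2 only 1 marker was called lower. The CD8 alpha chain of cytotoxic T cells (-0.41) and a CD4-like protein of helper T cells (0.24) were not called, and the CD4-like gene had 92.1, 82 and 117 FPKM in 6‰-treated asymptomatic fish, within the 36.5, 84.8 and 172 FPKM of con. MS4A4A was called lower, at 0.922, 0.951 and 1.92 FPKM in 6‰-treated asymptomatic fish and 4.88, 4.61 and 9.94 FPKM in con. Proenkephalin-A (CI01000004_02948465_02951235), an opioid peptide precursor, had 0, 0.461 and 0.189 FPKM in 6‰-treated asymptomatic fish, against 2.86, 3.44 and 2.47 FPKM in con (log2 difference -1.70, SE 0.187, limma adjusted p = 0.0223), and PIEZO2, a channel opened by mechanical force, was called lower at 2 of 3 loci, 1 of them lost without con replicate 2 or treated replicate 2. The 3 PIEZO2 names also came from infected fish. How far the make-up of cells differed between the gills was not tested.

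**Figure D5:**
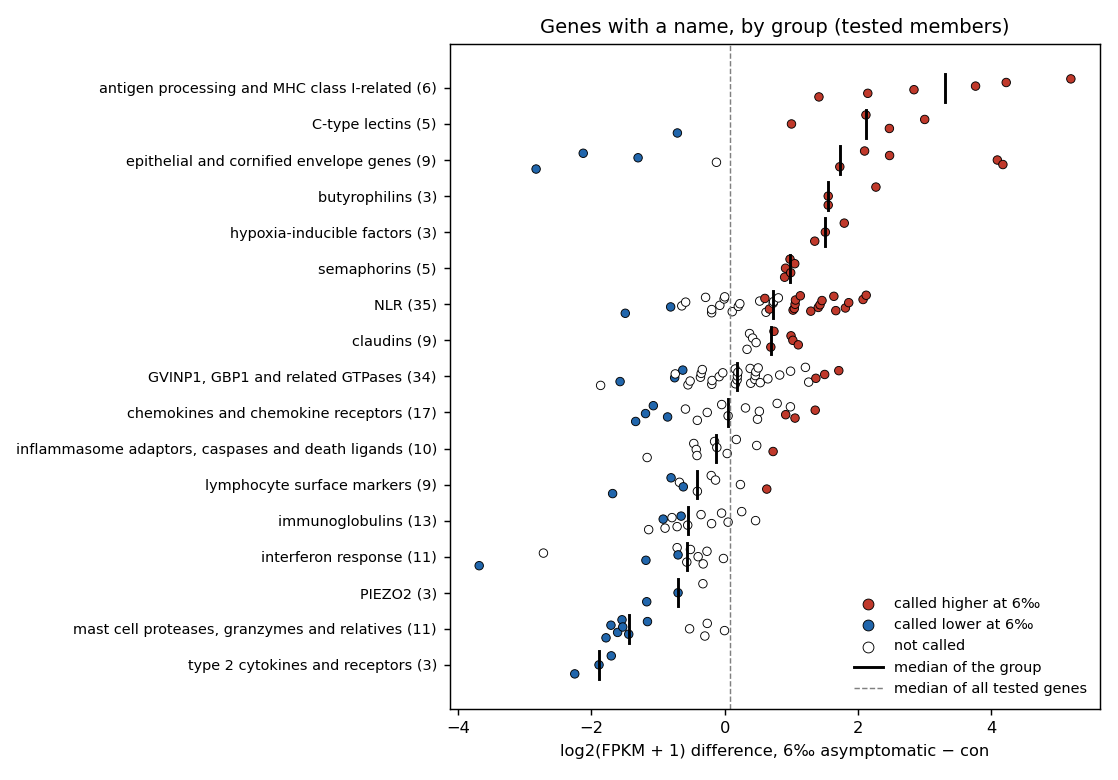
Log2(FPKM + 1) difference between 6‰-treated asymptomatic fish and con for the tested genes of the name groups, red where called higher, blue where called lower and open where not called, with the median of the group (black bar) and of all tested genes (dashed line, 0.08). Toll-like receptors and named genes in no group are not drawn. Antigen processing genes lie farthest to the right with a median of 3.30, and type 2 cytokine genes farthest to the left with -1.89.

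In all, 262 of the 266 genes with a name were tested. Of the 84 tested names drawn from uninfected fish 70 were called higher and 1 lower, and of the 178 drawn from infected fish 7 were called higher and 62 lower, beside the 8.30% and 4.04% of all genes. The first list was chosen by the study on contrasts among these libraries, so its count is not independent evidence. The median difference was 1.38 in the first list and -0.41 in the second.

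The largest changes in FPKM itself came from abundant genes with smaller folds. The tyrosine-protein kinase Fes/Fps gene (CI01000105_01838288_01843457), of a kinase known from myeloid cells in mammals, had 1574, 870 and 673 FPKM in 6‰-treated asymptomatic fish, against 156, 246 and 254 FPKM in con, 4.75-fold higher (log2 difference 2.18, SE 0.351, limma adjusted p = 0.0508). The other 4 of the 5 largest gains, without names, were 1.91-fold to 3.23-fold higher. The largest loss was CI01000046_00063416_00065082, at 585, 641 and 594 FPKM in 6‰-treated asymptomatic fish and 1653, 1684 and 1228 FPKM in con, 2.51-fold lower (SE 0.166 of a log2 difference of -1.31, limma adjusted p = 0.0292). The other 4 losses were 1.36-fold to 1.98-fold lower, and 2 of them stayed under the fold threshold.

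At the low end the strongest rise in the class of 0.5 to 1 FPKM was CI01000028_02610388_02621480, with 2.09, 1.78 and 1.09 FPKM in 6‰-treated asymptomatic fish and 0 in all con fish (log2 difference 1.39, SE 0.175, limma adjusted p = 0.0292). The strongest fall was newGene_318, listed at 0 in the treated fish and at 1.15, 2.67 and 1.38 FPKM in con. At 100 FPKM and above the largest rise was newGene_4556, at 127, 374 and 84.1 FPKM in 6‰-treated asymptomatic fish and 4.09, 0.0869 and 57.3 FPKM in con, with an SE of 1.4 and no adjusted call, and was not called without treated replicate 2.

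Genes listed at 0 in every fish of one group were mostly of low level in the other. Of all 40116 genes, 190 were at 0 in the 3 con fish and above 0 in the 3 treated fish, with a median of 0.307 FPKM in the treated fish and 9 genes of at least 5 FPKM. The reverse held for 101 genes, with a median of 0.304 FPKM in con and 3 genes of at least 5 FPKM. PSMB12 (mean 35.8 FPKM in 6‰-treated asymptomatic fish) was the most abundant of the 190 and newGene_5347 (15.7 FPKM in con) of the 101. With any 1 fish left out the counts were 319 to 403 and 196 to 251, as fewer fish must then be at 0. A value of 0 here is a listed FPKM, and with the depth unknown no detection limit can be given.

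Called genes also stood next to each other on the scaffolds. Among tested genes with a locus there were 43 runs of at least 3 neighbouring called genes of one direction, 41 of them higher and 2 lower, holding 142 genes, with 8.30% of all tested genes called higher and 4.04% lower. The split moved with the scaling, at 27 higher and 6 lower under median-ratio scaling and 24 higher and 9 lower under quantile normalization. Without con replicate 3 there were 73 and 11, without con replicate 1 or 2 there were 27 and 2, and without treated replicate 1 there were 24 and 1. How many runs unrelated neighbours would give was not tested. In 5 of the 43 all members differed by at least 1 on the log2 scale. Besides the run of TAP2, PSMB9 and PSMB12, a run of 4 rises on CI01000162 over 81.7 kb began with a GVINP1-like gene (median 2.05; not called without treated replicate 3), and a run of 4 on CI01000269 over 128 kb ended with a butyrophilin subfamily 1 member A1-like gene (median 2.05). The longest runs had 5 genes, and that on CI01000208, with coronin-7, an actin-binding protein of the Golgi, had a median of 1.19. Neighbouring loci of a family may share reads.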

How the data were processed

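RNA of 6 gills was compared, 3 fish a group, with groups taken from the labels. The authors deposited 1 table per fish of FPKM values, relative to transcript length and library total. Per the paper's methods paired-end reads were assembled with Trinity, while most identifiers are loci of a genome. How reads were aligned and counted, with what use of strand and on which build, remains not given in the sources used here. Since FPKM keeps no count of reads and no shared step of 1 read was found (at most 0.926% of low genes shared a ratio within 0.2%), no count test was run.

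For genes with a mean of at least 0.5 FPKM, log2(FPKM + 1) was fitted over the 6 fish alone, using limma 3.58.1 (R 4.3.3) with 4 residual and 2.62 prior degrees of freedom. P-values measure the spread between 3 fish a group. Salinity was set for the water of a group and the tank of each fish is not given. Differences between tanks therefore cannot be told apart from salinity. The code was run on simulated normal values with the same SD in both groups. The real groups differed, with a median SD of 0.257 in con and 0.169 in 6‰-treated asymptomatic fish on the log2 scale. That run therefore does not check the calls made here. Alternatives were a fit over the 5 groups, no filter, a mean of at least 1 FPKM, median-ratio scaling, quantile normalization, pseudocounts of 0.1 and 0.01, a variance prior following expression, a replicate block and leaving out each fish. A count of genes listed at 0 was repeated with at most 0.1 FPKM.

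The rule named the 12 largest rises and falls among adjusted calls without overlap, the 2 largest each way in 4 level classes, the 5 largest gains and losses in FPKM, NLRs given by identifier in the paper, other called genes without overlap that the paper names, and genes of a run. Members of the name groups outside that rule were named after their values were seen. The members, lists and name groups were chosen with earlier results of these data known. Names were taken only where the paper pairs them with an identifier. Of the identifiers, 0 matched the RefSeq table of HZGC01, so no sequence or pathway is given. Numbers of the newGene kind from the infected fish were not used here.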

Additional observations from a re-analysis of the deposited data

How the results depend on the processing

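None of the 140 called genes with a name changed direction in any of the 15 alternatives, 95 of them stayed called in all, and the 24 largest rises and falls stayed called in all 15. Of the 91 called genes in the name groups 61 stayed called throughout and 30 lost the call in at least 1 setting, most often without 6‰-treated asymptomatic replicate 2 (15 genes). The adjusted calls, 260 (172 higher, 88 lower), were fewer with a pseudocount of 0.1 (166, with 109 and 57) or 0.01 (107, with 69 and 38), and 114 and 113 were higher after median-ratio scaling and quantile normalization. In the class of 0.5 to 1 FPKM the calls became 321 higher and 187 lower with a pseudocount of 0.1, 287 and 175 with 0.01, and 161 lower after quantile normalization, while a filter at 1 FPKM leaves no gene there. In the class of 1 to 10 FPKM quantile normalization gave 763 higher and 766 lower. Leaving out each fish in turn gave 2379 to 4676 calls (1614 to 3141 higher, 765 to 1535 lower) and 48 to 806 adjusted calls (26 to 514 higher, 14 to 292 lower), highest without con replicate 3. It also gave 71 to 155 falls at 0.5 to 1 FPKM, 458 to 1256 rises and 255 to 505 falls at 10 to 100 FPKM, and 30 to 76 rises and 25 to 77 falls at 100 FPKM and above. Counted after the data were seen, the runs of neighbouring called genes numbered 24 to 73 higher and 0 to 11 lower when a fish was left out, and 62 and 3 with a pseudocount of 0.1. The genes listed at 0 in con alone numbered 319 to 403, against 190, and in 6‰-treated asymptomatic fish alone 196 to 251, against 101. Of the NLRs given by identifier 0 to 2 were called lower when a fish was left out, and 1 was called lower under each scaling.

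With the replicate number as a block 26 genes passed the adjusted p (18 higher, 8 lower), 3175 were called and 1 of these NLRs was called lower. The deviations of fish with the same number correlated by 0.0157, 0.13 and 0.125. Fish with different numbers were not compared in this way, so these values cannot decide whether the numbers pair the fish.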
